A study of Rattus norvegicus with 11 samples.

Results

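The MAP kinase phosphatases of the Dusp family were followed in the medial prefrontal cortex (mPFC) of rats with a history of heroin self-administration, by the probes that carry the name of Dusp1, Dusp2, Dusp4, Dusp5, Dusp6, Dusp10 or Dusp14 on the array. Of these 7 genes, 6 had a probe, 1 each, and no probe carried the name Dusp14. The 6 probes were chosen by name among 41012 non-control probes, and 4 of them (Dusp1, Dusp2, Dusp5 and Dusp6) were among the 25555 probes that were well above background on all 11 arrays and were tested. Dusp4 was well above background on 10 arrays, and Dusp10 on 0.

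Male rats aged 4 months either self-administered heroin through a jugular catheter (6 rats) or were yoked controls that received saline whenever a partner earned heroin (5 rats, numbered 2 to 6). Both groups then had 14 days of enforced abstinence and an extinction session without drug in the self-administration chambers, and the mPFC was taken directly afterwards. The yoked rats differ from the others both in the drug and in having had no control over the infusions, and neither was separated here. RNA of each rat was hybridised to 1 single-colour Agilent whole genome array, so a change may reflect fewer or more cells of a type as well as less or more RNA per cell, which cannot be told apart in bulk tissue. Signal is given in array medians, that is, as a multiple of the 50th percentile of all non-control probes of the same array.

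MAP kinases (ERK, JNK and p38) relay signals from receptors and synaptic activity to the nucleus, and they are active only while a threonine and a tyrosine of their activation loop carry phosphate. The Dusp enzymes remove both phosphates and so end the signal, and several of them are themselves immediate-early genes switched on by the pathway that they shut off. Dusp1, Dusp2, Dusp4 and Dusp5 are nuclear enzymes, Dusp6 is a cytoplasmic enzyme selective for ERK, Dusp10 acts on JNK and p38 in both compartments, and Dusp14 is a small cytoplasmic phosphatase. In cortex, ERK signalling is best known for its part in synaptic plasticity and in the transcription that follows neuronal activity.

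The stretches upstream of 3 members are shown because Dusp1, Dusp5 and Dusp6 had the 3 largest differences between the groups and differ in the response elements of the activity-regulated kind that they hold. They are RefSeq sequence of build GRCr8, plus strand, and end at the base before the annotated gene. The stretch of Dusp1 is chr10:17184603-17184852, that of Dusp5 chr1:262543524-262543773 and that of Dusp6 chr7:35979354-35979501, where the last 102 of the 250 bases searched fall inside the gene and are not shown. Capitals mark the cAMP response element (CRE, TGACGTCA), its shorter core (TGACG or CGTCA) and the CArG box bound by serum response factor.
Dusp1: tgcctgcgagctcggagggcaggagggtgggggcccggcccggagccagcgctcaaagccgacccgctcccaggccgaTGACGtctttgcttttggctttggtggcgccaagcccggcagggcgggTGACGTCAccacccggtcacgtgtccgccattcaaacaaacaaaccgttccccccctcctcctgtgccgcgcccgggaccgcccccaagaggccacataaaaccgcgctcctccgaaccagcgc
Dusp5: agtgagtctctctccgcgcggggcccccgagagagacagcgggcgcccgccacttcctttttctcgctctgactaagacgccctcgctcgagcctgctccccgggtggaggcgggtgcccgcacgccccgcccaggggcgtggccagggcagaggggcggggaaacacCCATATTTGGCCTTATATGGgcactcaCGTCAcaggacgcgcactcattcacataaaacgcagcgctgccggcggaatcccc
Dusp6: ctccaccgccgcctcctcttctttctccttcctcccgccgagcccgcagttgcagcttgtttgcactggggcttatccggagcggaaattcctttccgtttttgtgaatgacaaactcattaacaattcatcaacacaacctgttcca

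In the 250 bases before the transcript start, searched on both strands, Dusp1 had 1 CRE and 3 matches to the shorter core, 2 of which lie within that CRE. Among 33469 rat promoters of the same table, 1.59% held a CRE and 18.2% the shorter core. Dusp5 had 2 CArG boxes side by side, at 82 to 73 and 72 to 63 bases before the start, and 1 shorter core, while 1.5% of all promoters held a CArG box. A site of the Egr type (GCGNGGGCG, held by 4.29% of promoters) was found once each upstream of Dusp5 and Dusp2, and Dusp2 also had 1 shorter core. None of these letters was found in the stretch of Dusp6. The stretches given for Dusp10 and Dusp14 lie wholly inside the annotated genes and say nothing of what is upstream, with 0 matches for Dusp10 and 1 shorter core in 1 of 3 stretches of Dusp14. Dusp4 was not matched in the table. Each match is a description of sequence and says nothing of binding in this tissue.

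Dusp6 and Dusp5 were higher in the heroin rats, by 1.54-fold and 1.43-fold, and passed the study's thresholds, here an unadjusted limma p below 0.02 together with 1.4-fold or more. These were 2 of the 4 members tested, against 1.79% of all tested probes that passed in the heroin-higher direction and 2.72% in either direction. Dusp1 had a change of similar size (1.51-fold) with a wide spread and did not pass, and Dusp2 differed by 1.07-fold. After Benjamini-Hochberg adjustment over the 25555 probes the lowest adjusted limma p was 0.263, so that no member and no other probe passed 0.05, while 4729 probes were below 0.05 before adjustment. The size of the changes rests on the scaling of the arrays. With the 50th percentile the median tested probe was itself 0.18 higher in the heroin rats on the log2 scale, and with quantile normalization, where that shift was 0.01, 0 of 4 members passed against 0.853% of probes called higher.

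**Figure D1:**
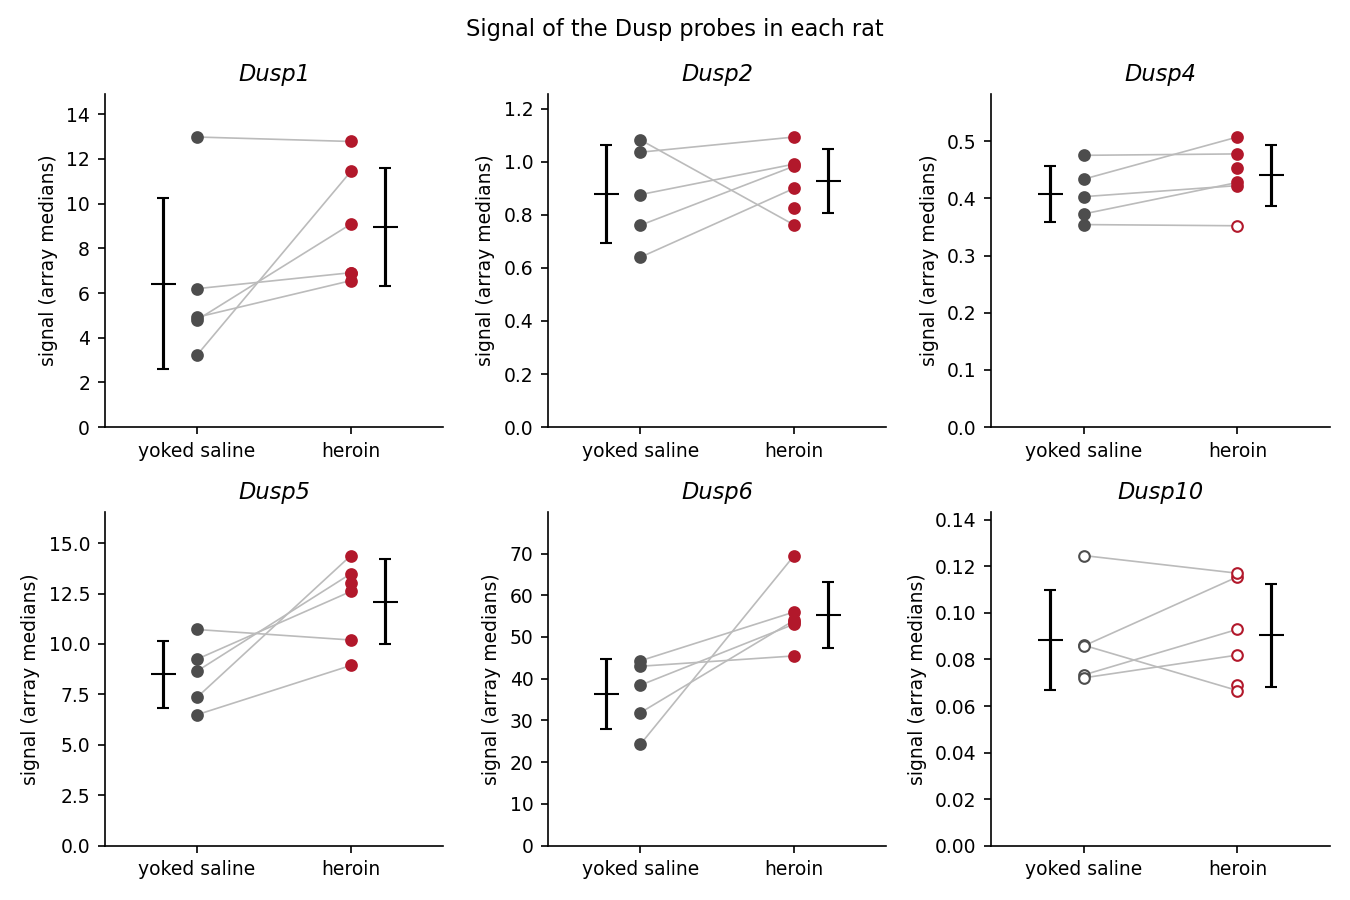
Signal of each Dusp probe in array medians (vertical axes, linear, from 0) in 5 yoked saline and 6 heroin rats. Points are rats, open where the probe was not well above background, bars beside them are the mean ± SD, and grey lines join rats with the same number, whose arrays were scanned together. The groups are apart for Dusp6 and overlap for the other 5 genes, and saline rat 2 stands above the other saline rats for Dusp1.

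Dusp6, the cytoplasmic ERK phosphatase, is measured by a probe at chr7:36917125-36917184 (build rn3, as for all probe positions here). Its signal in the heroin rats ran from 45.5 to 69.5 array medians with a median of 53.8. In saline rats 2 to 6 it was 44.3, 31.8, 38.4, 43.0 and 24.2. With 50th percentile scaling every heroin rat was above every saline rat, which 1.67% of the tested probes also showed. The means were 55.3 ± 7.86 (SD, n = 6) and 36.4 ± 8.34 (SD, n = 5), which gives a log2 change of 0.63 (SE 0.17, 95% interval 0.27 to 0.98). An exact permutation test, in which all divisions of the 11 rats into groups of these sizes were taken, gave p = 0.00216 (two-sided), the smallest that it can give, and the adjusted limma p was 0.263. Dusp6 passed the thresholds without any single rat, with log2 changes from 0.49 to 0.71. With quantile normalization its log2 change was 0.38 (95% interval 0.08 to 0.68, exact permutation p = 0.026), under 1.4-fold, and the groups overlapped. Saline rat 2, at a log2 signal of 5.77, then lay above 5 of the 6 heroin rats.

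Dusp5, the nuclear phosphatase selective for ERK, is measured at chr1:259978481-259978540. Its signal ran from 8.93 to 14.4 array medians in the heroin rats with a median of 12.8. Saline rats 2 to 6 had 8.65, 7.35, 9.25, 10.7 and 6.49. In 4 of 6 heroin rats it was above the highest saline rat, and heroin rats 5 and 6, at 10.2 and 8.93, lay within the saline range. The means were 12.1 ± 2.09 (SD, n = 6) and 8.49 ± 1.65 (SD, n = 5), which gives a log2 change of 0.51 (SE 0.16, 95% interval 0.17 to 0.86, adjusted limma p = 0.263, exact permutation p = 0.0195). Dusp5 lay near the threshold. It no longer passed without heroin rat 2 (log2 change 0.48), heroin rat 3 (0.46), saline rat 3 (0.47) or saline rat 6 (0.42). With quantile normalization its log2 change was 0.28 (95% interval -0.0013 to 0.56, exact permutation p = 0.0628).

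Dusp1, the nuclear phosphatase of JNK, p38 and ERK and a well-known immediate-early gene, is measured at chr10:16945391-16945710, a span longer than the probe itself. Its signal ran from 6.55 to 12.8 array medians in the heroin rats with a median of 7.997. Saline rats 2 to 6 had 13.0, 3.22, 4.798, 6.20 and 4.92. Saline rat 2 was thus the highest of all 11 rats, and each of the 6 heroin rats was above the other 4 saline rats, whose mean was 4.78 ± 1.22 (SD, n = 4). Setting aside the highest saline rat favours such a separation for any probe, and its share over all probes was not taken. The group means were 8.94 ± 2.65 (SD, n = 6) and 6.42 ± 3.81 (SD, n = 5), which gives a log2 change of 0.59 (SE 0.29, 95% interval -0.03 to 1.22, adjusted limma p = 0.274, exact permutation p = 0.126). Without saline rat 2 the log2 change was 0.89 and Dusp1 passed the thresholds, while without saline rat 3, the lowest, it was 0.39 and Dusp1 did not pass. It also passed with the replicate number as a block (0.66), where 806 of all tested probes passed against 694 in the main fit. Dusp1 passed with array weights (0.80) too, where 2447 probes passed. With quantile normalization its log2 change was 0.37 (95% interval -0.33 to 1.07, exact permutation p = 0.342). It did not pass there, nor with the block and quantile normalization together (0.447). Heroin rat 2, whose array was scanned with that of saline rat 2, was the highest of the heroin rats at 12.8.

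Dusp2, a nuclear phosphatase best known from activated lymphocytes, is measured at chr3:114745348-114745407. Its signal ran from 0.762 to 1.09 array medians in the heroin rats with a median of 0.941, and was 1.04, 0.760, 0.640, 0.876 and 1.08 in saline rats 2 to 6. The ranges overlapped almost entirely. The log2 change of 0.09 (SE 0.16, 95% interval -0.24 to 0.42, exact permutation p = 0.565) leaves room for a 1.34-fold rise and for a fold change down to 0.846. It was -0.13 after division by the 75th percentile, which moved the median tested probe from 0.18 to -0.03 as well, and 0.11 after quantile normalization.

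Dusp4, a nuclear phosphatase closely related to Dusp1, is measured at chr16:61111848-61119638 on the minus strand. Its signal was 1.68 times the lowest that counted as well above background, and it was well above background in 5 of 6 heroin and 5 of 5 saline rats, so that it was not in the limma fit. The heroin rats had 0.352 to 0.507 array medians (median 0.440) and saline rats 2 to 6 had 0.373, 0.475, 0.354, 0.434 and 0.403. These ranges overlapped, with a log2 change of 0.11 (exact permutation p = 0.336). After quantile normalization the log2 change was 0.28 (exact permutation p = 0.0455), and after division by the 75th percentile it was -0.11.

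Dusp10, the JNK and p38 phosphatase, is measured at chr13:100239660-100239719 and was not well above background in any rat. Its signals before scaling were 2.86 to 10.4 units, and those below the floor of 5 were raised to it. The resulting values were 0.0667 to 0.117 array medians in the heroin rats and 0.0721 to 0.125 in the saline rats. They partly reflect the median of each array rather than Dusp10, and no fold change is given. No probe of any member was saturated.

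**Figure D2:**
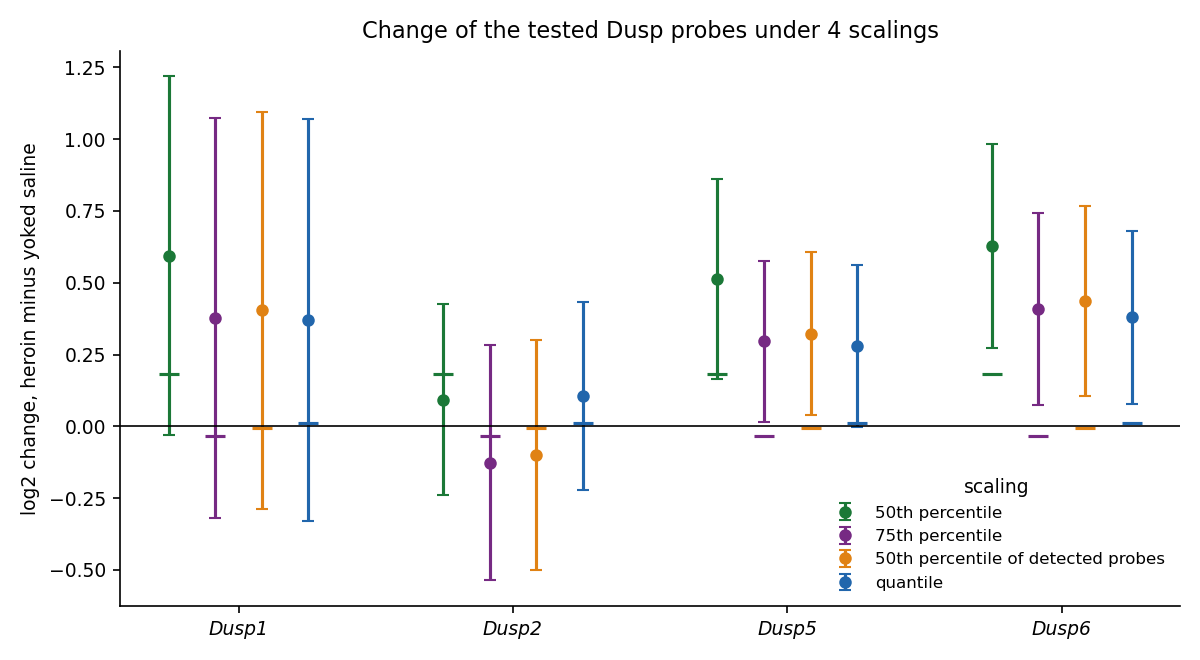
Change of the 4 tested Dusp members between heroin and yoked saline rats (vertical axis, log2 scale) under 4 ways of scaling the arrays. Points are limma estimates, bars their 95% intervals, and the short horizontal marks the median change of all 25555 tested probes under the same scaling. Dusp1, Dusp5 and Dusp6 lie above the median mark and Dusp2 below it with the 3 percentile scalings, which shift all probes alike and so count as 1 comparison, and all 4 members lie above it with quantile normalization.

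Relative to the median tested probe, Dusp6 was 0.44 higher on the log2 scale with the 50th percentile and 0.37 with quantile normalization. The same values were 0.33 and 0.27 for Dusp5, and 0.41 and 0.36 for Dusp1. Dusp2 was at -0.09 and 0.09. Division by another percentile leaves these differences as they are by construction. Among the changes of all tested probes Dusp6 stood at percentile 99.4, Dusp1 at 99.1, Dusp5 at 97.9 and Dusp2 at 32.1 with the 50th percentile, and at 95.8, 95.6, 91.2 and 70.9 with quantile normalization. The order of Dusp6, Dusp1 and Dusp5 was the same under both, and their intervals overlapped widely.

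The file headers show that the arrays of a heroin and a saline rat with the same number were scanned together, in 6 scans, of which that of heroin rat 1 held no saline rat. Within the 5 scans that held both, Dusp6 was higher in the heroin rat in 5 of 5 pairs, by 0.08 to 1.52 on the log2 scale. Dusp5 was higher in 4 of 5 pairs (-0.07 to 0.97) and Dusp1 in 4 of 5 (-0.02 to 1.83). The exceptions were pair 5 for Dusp5 and pair 2 for Dusp1. With this scaling 78.7% of all tested probes had a group difference above 0 in the heroin rats, and their counts by pair were not taken. After quantile normalization Dusp5 was higher in 5 of 5 pairs (0.10 to 0.59), Dusp6 in 4 of 5 (-0.03 to 1.003) and Dusp1 in 4 of 5 (-0.41 to 1.47), with pair 2 the lowest for both. Dusp2 was higher in 4 of 5 pairs (-0.51 to 0.49) and Dusp4 in 4 of 5 (-0.01 to 0.23), which became 5 of 5 for Dusp4 after quantile normalization (0.06 to 0.45). All heroin arrays lay at the same position of their slides and all saline arrays at another, so array position and group cannot be told apart.

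**Figure D3:**
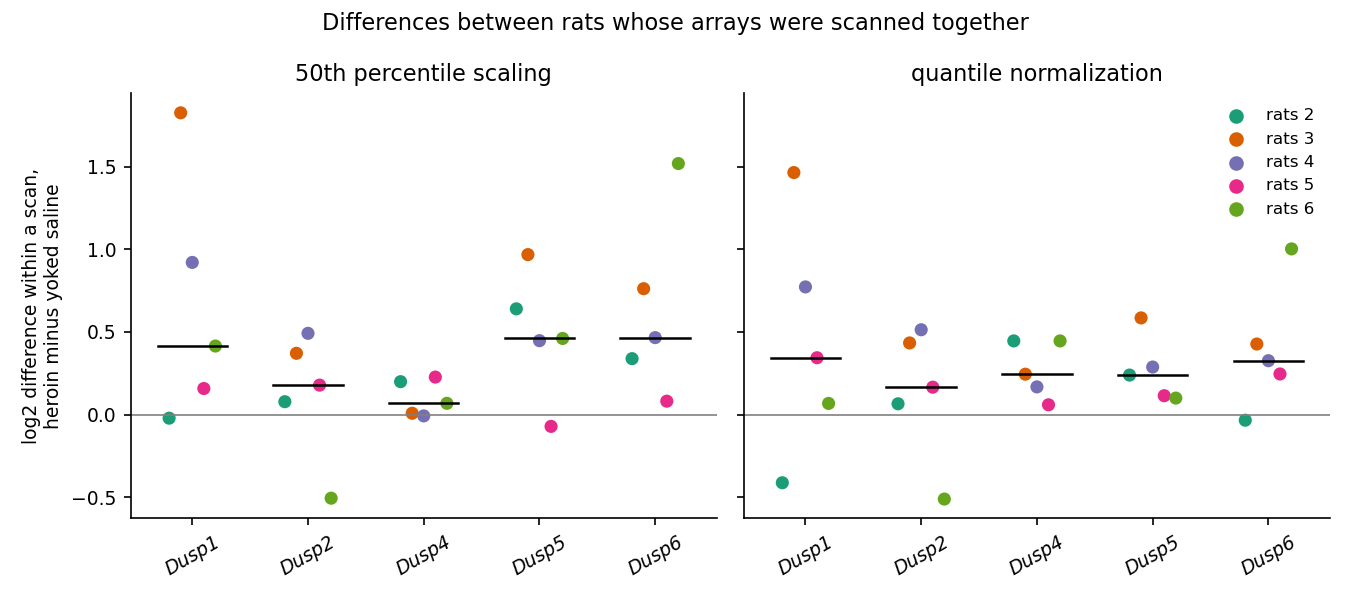
Log2 difference between the heroin and the yoked saline rat whose arrays were scanned together (vertical axis), for 5 pairs of rats and the 5 Dusp genes with signal above background, after 50th percentile scaling on the left and quantile normalization on the right. Points are pairs and black lines the median of the 5. Dusp6 is above 0 in 5 pairs on the left, and Dusp4 and Dusp5 are in 5 pairs on the right.

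The nuclear and the cytoplasmic enzymes could be set side by side only in part, since 3 nuclear members were tested but Dusp6 was the only cytoplasmic one. The median log2 change was 0.51 for the nuclear members and 0.63 for Dusp6. The nuclear median was the value of Dusp5. The difference of -0.11 (-0.10 with quantile normalization) carries no test, and it ran from -0.20 to 0.04 when single rats were left out. Dusp5 in the nucleus and Dusp6 in the cytoplasm, the pair with selectivity for ERK, thus differed from saline by amounts whose intervals overlap.

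Among the rats of a group the 6 pairs of tested members had r between -0.029 and 0.69, with each group's mean removed and quantile-normalized values. Dusp1 went with Dusp2 (r = 0.69, rho = 0.755, permutation p = 0.0364 and 0.0135, n = 11) and with Dusp5 (r = 0.651, rho = 0.745, permutation p = 0.021 and 0.0172), but neither passed after adjustment over the 6 pairs (adjusted permutation p = 0.109 for both). Without saline rat 2 and heroin rat 2, the rats farthest from the median of Dusp1, these r were 0.622 and 0.435. Dusp1 and Dusp6 had r = 0.593 (rho = 0.291, permutation p = 0.186 and 0.424), which turned to -0.178 without the same 2 rats and so rests on them. Dusp5 and Dusp6 had r = 0.314 (rho = 0.509, permutation p = 0.348 and 0.142), and 0.697 without saline rat 6 and heroin rat 6. Dusp2 and Dusp5 had r = 0.334 (rho = 0.391, permutation p = 0.311 and 0.28), and 0.804 without saline rats 4 and 6. With 50th percentile scaling the r of the 6 pairs ran from -0.345 (Dusp2 with Dusp6) to 0.604 (Dusp1 with Dusp2). Heroin rat 6 had the lowest Dusp1, Dusp2 and Dusp5 of the heroin rats together with the highest Dusp6, and its array also had the lowest median signal of all, 42.7 against 58.0 to 83.2 in the saline arrays. The part of that array in these values was not tested.

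The probes most like each member in pattern were found among 11162 tested probes of named genes. Pearson r of quantile-normalized values over the 11 rats was used, with each group's mean removed. These r are the highest of many and carry no test, and the rats share scans and scaling. For Dusp1 they were Atg7, an autophagy enzyme (r = 0.96), Junb, a subunit of the AP-1 transcription factor (0.93), and Cd2bp2, a splicing factor (0.93). The value for Junb was 0.657 without saline rat 2 and heroin rat 2, and 0.91 with 50th percentile scaling. For Dusp6 they were Egr3, an activity-regulated transcription factor (0.95), Ubtd1 (0.91) and Pemt, an enzyme of phosphatidylcholine synthesis (0.89). Egr3 gave 0.715 without saline rats 2 and 6, and 0.53 with 50th percentile scaling. Its signal was low, with means of 0.542 array medians in the heroin and 0.463 in the saline rats, near those of Dusp4. For Dusp5 they were Mapkapk3, a kinase activated by p38 (0.97), Trib1, a pseudokinase that binds MAP kinase kinases (0.93), and Mpp2, a synaptic scaffold (0.91). For Dusp2 they included Creb3 (0.95) and Ruvbl1 (0.94). With 50th percentile scaling r was 0.47 for Creb3, 0.73 for Ruvbl1, 0.81 for Mapkapk3, 0.90 for Trib1 and 0.58 for Mpp2. It was then 0.94 for Atg7, 0.71 for Cd2bp2, 0.74 for Ubtd1 and 0.76 for Pemt.

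**Figure D4:**
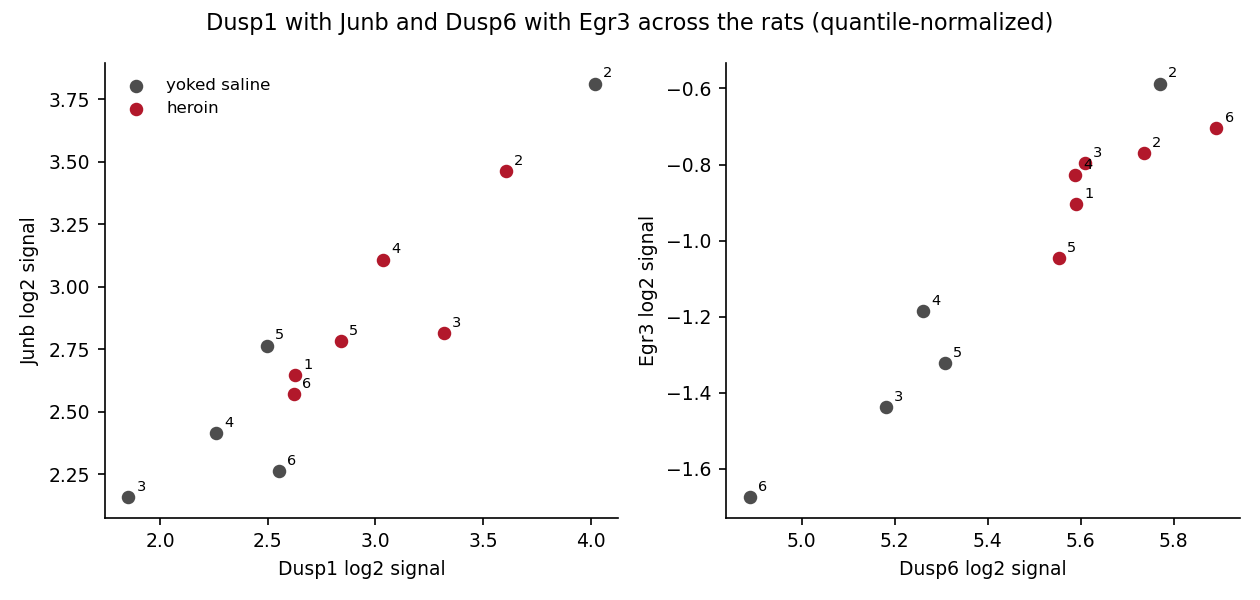
Quantile-normalized log2 signal of Dusp1 against Junb (left) and of Dusp6 against Egr3 (right), 1 point per rat, numbered within its group. Both pairs rise together across the rats of each group, and saline rat 2 is the highest saline rat in both panels.

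Other genes of MAP kinase signalling give the surroundings of these values. Of 81 genes listed, 76 had a probe, 68 were tested and 6 passed the thresholds as higher and 1 as lower in the heroin rats. That is 8.82% of those tested as higher, against 1.79% of all probes. With quantile normalization 3 of the 68 passed, of which Map2k7 was lower in the heroin rats. In that setting 457 of the 25555 tested probes passed in either direction, and 0.853% passed as higher. None of the remaining Dusp genes did. Of the other typical MAP kinase phosphatases, Dusp7 and Dusp16 were not well above background on all arrays, and Dusp9 (log2 change 0.28, exact permutation p = 0.0844) and Dusp8 (0.24, p = 0.597) did not pass. Of 10 atypical dual-specificity phosphatases tested, with a median log2 change of 0.17 against 0.18 for all probes, the extremes were Dusp26 (0.37, exact permutation p = 0.126) and Dusp23 (-0.39, p = 0.0606), and neither passed.

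Among the substrates, 1 of 10 MAP kinases passed, against 2.72% of all tested probes in either direction. The brightest Mapk8 probe (JNK1) was at 11.5 ± 4.42 array medians (SD, n = 6) in the heroin and 7.25 ± 1.22 (SD, n = 5) in the saline rats, which gives a log2 change of 0.61 (exact permutation p = 0.0152). The other 2 tested Mapk8 probes had log2 changes of -0.00045 and 0.05. The lowest was Mapk4, with a log2 change of -0.09. In the kinase cascade above the MAP kinases 1 of 13 genes passed, against the same 2.72%. It was Map2k7, the activator of JNK, which fell by 0.67 on the log2 scale (exact permutation p = 0.0281), from 0.988 ± 0.309 (SD, n = 5) in the saline to 0.596 ± 0.0883 (SD, n = 6) array medians in the heroin rats. Map2k1, the activator of ERK, had the highest log2 change of that list at 0.47 (exact permutation p = 0.0281), under 1.4-fold. Of 14 other inhibitors tested, such as Sprouty and Spred proteins, 0 passed, and their extremes were the protein phosphatase subunit Ppp2ca (0.44, exact permutation p = 0.0173) and the Ras inhibitor Nf1 (-0.24, p = 0.0952).

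Among 19 transcription factors and effectors that respond to ERK, 5 passed the thresholds as higher, against 1.79% of all probes, and 0 as lower. Their median log2 change was 0.35 against 0.18 for all probes (0.21 against 0.01 with quantile normalization). Egr2 rose most, from 8.22 ± 3.32 (SD, n = 5) to 15.9 ± 3.85 (SD, n = 6) array medians, which gives a log2 change of 1.02 (exact permutation p = 0.00866). Egr1 (0.66, exact permutation p = 0.00216), Egr4 (0.87, p = 0.00476), Nr4a3 (0.67, p = 0.00216) and Arc (0.70, p = 0.0152) also rose. The Egr4 spot of saline rat 5 was marked by the scanner software and left out, so that its test has 4 saline rats. With this scaling the groups did not overlap for Egr1, Egr4 and Nr4a3, as for Dusp6 and 1.67% of all tested probes. They did not overlap for Etv1 either (0.23, exact permutation p = 0.0286), but there fewer rats had a usable value. With every rat included, such a separation gives an exact permutation p of 0.00216, as for Egr1 and Nr4a3. The separation of Etv1 is therefore not comparable with theirs. Etv1 did not pass and was at -0.12 with quantile normalization. Nr4a3 had 3 tested probes, and the other 2 had log2 changes of -0.04 and 0.81. The lowest change was that of Elk1 (-0.19, exact permutation p = 0.403). With quantile normalization 2 of the 19 passed, Egr2 and Egr4, against 0.853% of all tested probes called higher. Arc lost its call without heroin rat 1, 2 or 3 (0.67, 0.67 and 0.64) or without saline rat 3 or 6 (0.55 and 0.49), and Mapk8 without saline rat 2, 3, 4 or 6 (0.58, 0.58, 0.58 and 0.59) or heroin rat 6 (0.43). Map2k7 lost it without saline rat 4 (-0.56) and with normexp background correction (-0.295). Arc, Mapk8 and Map2k7 also lost their calls with the unequal-variance test of the study's methods.

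**Figure D5:**
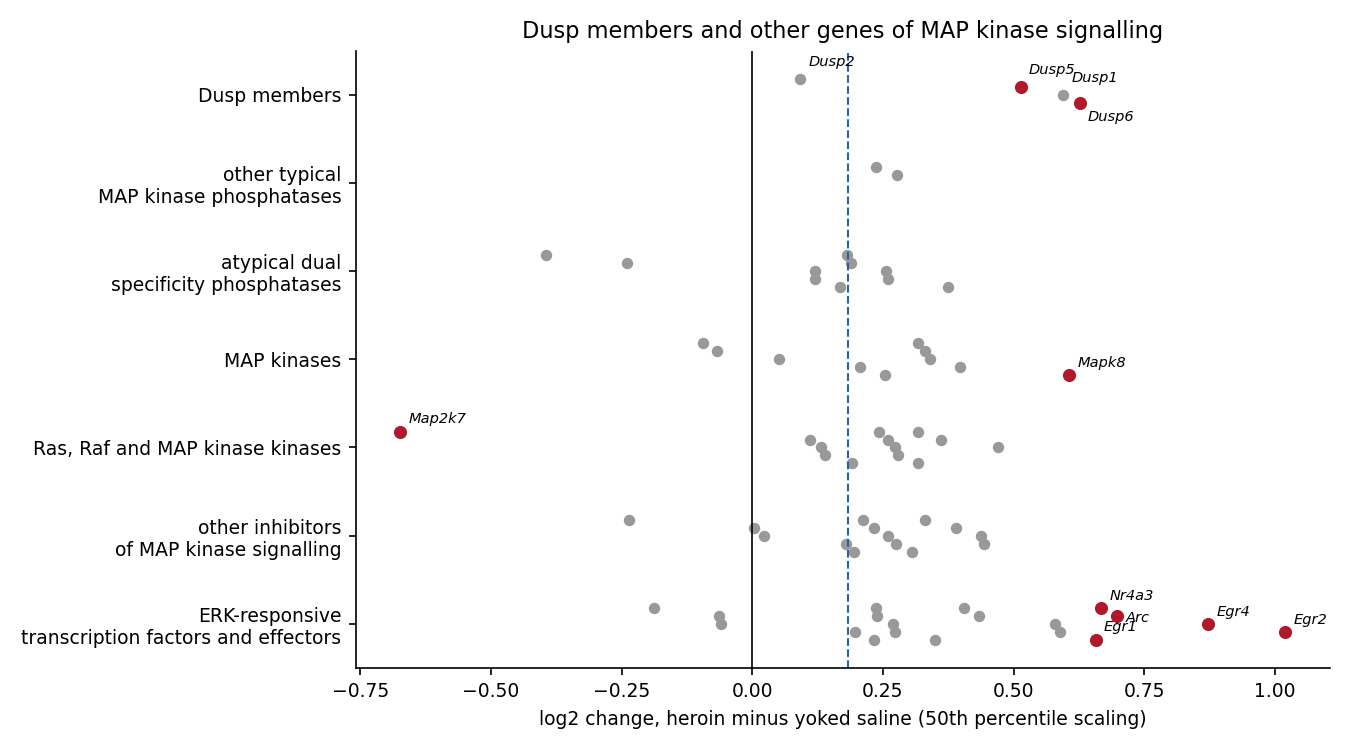
Log2 change between heroin and yoked saline rats (horizontal axis, 50th percentile scaling) of the tested Dusp members and of 6 lists of other MAP kinase signalling genes, 1 point per gene, staggered vertically for legibility. Red points passed the thresholds (unadjusted limma p below 0.02 and 1.4-fold), and the dashed line is the median of all tested probes at 0.18. Red points lie in the rows of the Dusp members, the MAP kinases, the kinase cascade and the ERK-responsive genes.

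The arrays had medians of 42.7 to 78.3 signal units in the heroin and 58.0 to 83.2 in the saline rats, with 28185 to 33209 and 30098 to 33835 probes well above background. Markers of cortical excitatory neurons were well above background (6 of 7 tested, Tbr1 without a probe), and 0 of 6 passed the thresholds (median log2 change 0.32). Of markers of other cells that the block could hold, 0 of 6 astrocyte, 0 of 6 oligodendrocyte, 0 of 5 microglia, 0 of 5 endothelial, 0 of 2 blood and 0 of 5 striatal genes passed, with medians between -0.06 and 0.19. Of 6 interneuron markers 1 passed, Vip, with a log2 change of 0.49 (exact permutation p = 0.00433), against 1.79% of all tested probes called higher. The summed signal of the interneuron markers ran from 352 to 459 array medians in the heroin and from 277 to 383 in the saline rats, and that of the excitatory neuron markers from 272 to 448 and from 241 to 375. Their part in the Dusp values was not tested.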

How the data were processed

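RNA from the mPFC of 11 rats was measured on 1 single-colour Agilent array each. The authors deposited spot intensities that Feature Extraction 9.5.1.1 had corrected for background (build rn3 in the headers) without scaling between arrays, and a table of relative values, a ratio around 1 per probe and rat, used here as an alternative. Control spots and 99 to 231 marked spots per array were dropped. As in the study's methods, a floor of 5 was applied, signals were divided by the 50th percentile of their array, and log2 was taken. Probes well above background on all arrays entered limma (version 3.58.1, R 4.3.3, two-sided, no covariate, tested on simulated data). The number of arrays limits the precision. Members, lists and tests were chosen with earlier results of these data known, and Dusp5 and Dusp6 stood in the study's own list from these arrays, so their calls are not independent evidence. All member probes are named, with the listed genes that passed, the extremes of each list and the 3 probes most like each member, of which 1 for Dusp2 is not reported here. The brightest probe stood for a gene with several. Exons of the probes were not analysed here.

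Same-numbered rats share a scan in the headers, but their deviations correlated at -0.24 to 0.38, so the number served as a block only as an alternative. The other alternatives were 3 scalings, normexp (offset 50), the floor after scaling, the authors' ratios, marked spots kept, 2 detection filters, the methods' test, eBayes with a trend and robust, array weights, averaged probes and leaving out each rat. The block with quantile normalization and the changes relative to the median probe were added after the data were seen.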

Additional observations from a re-analysis of the deposited data

Results flagged for a closer look

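Among 26 groups of rats examined for 1 rat far from the others (the members with a probe and the pathway genes that passed), 5 held one, where chance gives about 1 in 20, and none of them was a group of a Dusp member. In each case the gap to the nearest rat is given as a share of the group's range. For Mapk8, heroin rat 6 was at 20.3 array medians (gap 0.647) and saline rat 5 at 9.42 (gap 0.908). Heroin rat 6 also stood above the other heroin rats for Egr1, at 184 (gap 0.688), and Egr4, at 275 (gap 0.664). For Nr4a3, heroin rat 4 stood below them at 21.9 (gap 0.683).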

How the results depend on the processing

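The number of Dusp members that passed the thresholds (2) was 0 with 75th percentile scaling, quantile normalization, the 50th percentile of detected probes, and the replicate block with quantile normalization, 1 with normexp, 3 with array weights, and 1 to 3 without single rats. With the replicate block, which equals the scan block, 3 members, 806 probes and 9 pathway genes passed, and of the members' calls it changed that of Dusp1 alone (log2 change 0.66). All tested probes gave 694 calls, of which 458 were higher in heroin, and 457 with quantile normalization, of which 218 were higher. The count was 123 with normexp, 1560 with no filter, 1066 with detection in 1 group, 309 with the methods' test, 2447 with array weights, 410 with the block and quantile normalization, and 342 (without saline rat 2) to 2352 (without saline rat 5) without single rats. The 7 pathway calls became 3 with the 75th percentile, 3 with quantile normalization, 4 with detected probes, 4 with the methods' test, 17 with array weights, 2 with the block and quantile normalization, and 5 to 11 without single rats, 11 being without saline rat 5. Dusp2 turned negative with the 75th percentile (-0.13), with detected probes (-0.10) and without saline rat 4 (-0.016), and reached 0.174 without saline rat 6. The log2 changes of Dusp1, Dusp5 and Dusp6 kept their sign in every setting run. The median nuclear minus cytoplasmic change ran from -0.20 to 0.04 without single rats and was 0.02 with array weights. The causes were not tested. Dusp4 and Dusp10 are limited by signal over background.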
